A study of Homo sapiens with 21 samples.

Results

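The 15 libraries described here came from cells labelled HepG2 that were kept for 6 h with no coumarin or with coumarin at 0.001, 0.01, 0.1 or 1 µM, and they were chosen by their labelled dose from the 21 libraries of the study, which also treated cells at 10 and 100 µM. Each of the 5 doses had 3 libraries, which the design text describes as biological replicates, so 12 low-dose libraries stood against 3 at 0 µM. All cells, controls included, were washed and moved from serum-containing medium to serum-free DMEM at the start of exposure, and the coumarin was dissolved in DMEM with no other solvent named. HepG2 is an established human line from a liver tumour. These doses raise a pair of questions: how large a change the pooled libraries leave room for, gene by gene, and whether the 4 low doses differ among themselves.

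Coumarin is a fragrance compound of plants that human liver cells hydroxylate through the enzyme CYP2A6. Immediate early genes, among them FOS and FOSB, are transcribed within minutes of a stimulus such as fresh serum, without new protein synthesis, and their transcripts are short-lived. FOS and FOSB proteins pair with JUN proteins to form the transcription factor AP-1.

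Total counts ran from 27984517 to 36488412 in the controls and from 29753494 to 43704155 in the low-dose libraries, and 3 counts equalled 0.0686 to 0.107 CPM (counts scaled to the library's size), counting error only. Of 58735 genes, 16196 had enough counts to be tested. The label HepG2 did not match the marker genes: of 24 hepatocyte genes 1, FOXA1, reached a mean of at least 1 CPM, and 7, ALB among them, had no read in any of the 15 libraries. The 24 summed to 11.26 to 12.01 CPM in the controls and 11.2 to 13.5 at the low doses. In the same order, 8 genes of biliary and simple epithelium summed to 4318 to 4589 and 4381 to 4880 CPM. Of these 8, 4 had a mean over 1 CPM: KRT7 (1229), KRT8 (2363), KRT18 (922) and ELF3 (26.1). KRT19 and EPCAM had no read in any of the 15 libraries, and SOX9 and CDH1 were under 1 CPM. The 11 mesenchymal genes summed to 1747 to 1821 and 1685 to 1867 CPM, and 10 of them had a mean over 1 CPM. None of 5 immune genes and 1 of 4 endothelial genes was abundant enough to be tested. CYP2A6 had 7 reads over the 15 libraries. Of the 15, 3 libraries held extreme values more often than the rest. Control replicate 2, the shallowest, was highest for 12.5% and lowest for 13.8% of all tested genes, 0.1 µM replicate 1 for 10.0% and 14.3%, and 0.001 µM replicate 3 for 10.7% and 7.63%. The counts of gene lists below are given with and without control replicate 2 where it changes them.

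FOS was the only gene whose mean over the 4 low doses differed from 0 µM after adjustment over all genes. It was lower at 0.01 and 0.1 µM, by about 1 log2 unit at each, while at 0.001 µM its level overlapped that of the controls and at 1 µM it lay between. The call is 1 of 16196 genes, 0.00617% of those tested, with 0 higher (0%) and 1 lower (0.00617%). At an unadjusted p under 0.05 there were 1225 genes (7.56%), 592 higher (3.66%) and 633 lower (3.91%), against 810 that this threshold passes by chance.

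The bases before the start of FOS and FOSB are shown because the transcripts of both were lowest at 0.01 and 0.1 µM. They are RefSeq sequence (build GRCh38.p14, plus strand), taken from the 250 bases before the RefSeq start and printed as far as the base before the gene start in the deposited annotation. FOS (ENSG00000170345) covers chr14:75278774-75282230 and the printed stretch is chr14:75278578-75278773. FOSB (ENSG00000125740) covers chr19:45467995-45475179 and the printed stretch is chr19:45467746-45467994. Capitals mark the letters TGACG, the core of the cyclic AMP response element, which a search of both strands found 1 time in each, 64 and 60 bases before the RefSeq start.
FOS: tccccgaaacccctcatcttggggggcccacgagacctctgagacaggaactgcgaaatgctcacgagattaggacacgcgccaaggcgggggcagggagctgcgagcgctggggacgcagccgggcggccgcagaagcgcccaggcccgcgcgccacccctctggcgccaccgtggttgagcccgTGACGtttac
FOSB: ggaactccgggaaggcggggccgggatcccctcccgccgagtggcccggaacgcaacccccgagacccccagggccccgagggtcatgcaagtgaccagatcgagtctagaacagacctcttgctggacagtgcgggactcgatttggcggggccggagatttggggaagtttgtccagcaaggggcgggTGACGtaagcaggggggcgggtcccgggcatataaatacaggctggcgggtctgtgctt
The same letters occur, on either strand, in the 250 bases before the start of 21.2% of 35116 RefSeq promoters, and the full element TGACGTCA, in neither stretch, in 1.65%. A match in the letters is a description of the sequence, not a measurement of binding.

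FOS encodes the founding member of the AP-1 FOS family. Its level was 81.1, 99.8 and 99.001 CPM in the 3 control libraries and 98.4, 87.3 and 91.5 CPM at 0.001 µM. At 0.01 µM it was 44.5, 40.3 and 51.0 CPM, and at 0.1 µM it was 47.3, 42.8 and 49.4 CPM. At 1 µM it was 73.4, 66.6 and 80.4 CPM. All 6 libraries at 0.01 and 0.1 µM lay below the other 9, the 3 at 1 µM lay below every control and between the other doses, and the controls overlapped 0.001 µM. The pooled log2 fold change was -0.60 (SE 0.09, 95% interval -0.79 to -0.42, edgeR quasi-likelihood test, adjusted p = 0.00397).

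Against 0 µM, FOS fell by 1.04 on the log2 scale at 0.01 µM (95% interval -1.29 to -0.80, edgeR, adjusted p = 3.17e-05) and by 1.00 at 0.1 µM (-1.24 to -0.77, adjusted p = 5.01e-05). It was the 1 gene called at each of these doses (0.00617% at each), where 1427 (8.81%) and 1015 (6.27%) genes had an unadjusted p under 0.05. At 0.001 µM its difference was -0.01 (-0.24 to 0.22, adjusted p = 0.981), and at 1 µM -0.34 (-0.58 to -0.11, adjusted p = 1.00). No gene passed in edgeR at 0.001 µM (0%) or at 1 µM (0%), where 1364 (8.42%) and 633 (3.91%) had an unadjusted p under 0.05. These comparisons share their 3 controls. In RNA from whole cultures, fewer cells expressing a gene and less RNA per cell cannot be told apart. Outside the low doses FOS stood at 49.0, 77.6 and 76.3 CPM at 10 µM and at 111, 90.5 and 114 CPM at 100 µM, neither called against 0 µM (edgeR, adjusted p = 0.0709 and 0.379).

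FOS was also the 1 gene (0.00617%) called in the test of differences among the 4 low doses, which leaves the controls out of the contrast (edgeR F-test, adjusted p = 1.12e-05). In this test 821 genes (5.07%) had an unadjusted p under 0.05. Among the 6 pairs of low doses, with p adjusted over all genes and pairs, FOS was the 1 gene called in any pair (0.00617%), and no pair was called with robust moderation or with limma on either FPKM scale. It was lower at 0.01 than at 0.001 µM by a log2 difference of -1.03 (-1.27 to -0.79) and at 0.1 than at 0.001 µM by -0.99 (-1.23 to -0.75), with adjusted p = 0.000173 for both in edgeR. The difference of 0.1 from 0.01 µM was 0.04 (-0.21 to 0.29, adjusted p = 0.988). From 0.01 to 1 µM it was 0.70 (0.45 to 0.94, adjusted p = 0.106) and from 0.1 to 1 µM 0.66 (0.42 to 0.90, adjusted p = 0.149), and neither passed. With robust moderation of the spread, chosen after seeing the data, the adjusted p of FOS was 0.525 for the pooled contrast and 0.160 for the F-test, and no gene was called in either, with 1207 and 806 at an unadjusted p under 0.05. The pooled call was also lost without control replicate 2 or control replicate 3 (adjusted p 0.00216 to 0.213 over the 15 fits with 1 library left out). The F-test kept FOS with each of the 15 libraries left out in turn (adjusted p 7.43e-06 to 0.000139).

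FOSB, a close relative of FOS, had 1.35, 1.68 and 1.86 CPM in the controls and 1.11, 1.88 and 1.28 CPM at 0.001 µM. It had 0.938, 0.759 and 0.552 CPM at 0.01 µM, 0.660, 0.881 and 0.884 CPM at 0.1 µM and 1.07, 0.914 and 1.19 CPM at 1 µM. The libraries at 0.01 and 0.1 µM were below all controls and all libraries at 0.001 µM, but overlapped those at 1 µM. Its pooled log2 fold change of -0.73 (-1.09 to -0.37) did not pass (adjusted p = 0.556, edgeR), nor did its difference among doses (adjusted p = 0.741). FOSB overlaps ERCC1 on the opposite strand, so without a stated use of strand the reads of the pair cannot be told apart.

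Of 24 immediate early genes listed, 22 were tested. In the pooled contrast 1 was called, lower, and 4 lower and 2 higher had an unadjusted p under 0.05, with a median log2 fold change of -0.01 beside 0.0012 for all tested genes. The 4 and 2 became 3 and 0 without control replicate 2, and 2 and 4 without control replicate 3. A p that passes only before adjustment is called nominal from here on. The nominal list counts below stand beside 3.66% higher and 3.91% lower over all 16196 tested genes. Without control replicate 2 the totals over all genes were 297 higher and 255 lower of 16479, and without control replicate 3 they were 1107 and 933 of 16496. The 4 lower were FOS, FOSB, DUSP1 and DUSP6, of which the DUSP genes encode phosphatases that switch off MAP kinases, and the 2 higher were MYC and IER3. In the test among the 4 doses 6 of the 22 had an unadjusted p under 0.05, beside 5.07% of all genes: FOS, FOSB, JUN, JUNB, KLF6 and DUSP1, of which only FOS was called. These names follow from the counts and were picked after their values were seen.

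DUSP1 had 178, 193 and 196 CPM in the controls, 190.5, 192 and 196 at 0.001 µM, 169, 166 and 175 at 0.01 µM, 168, 160.3 and 167 at 0.1 µM and 175, 177 and 193 at 1 µM. All 6 libraries at 0.01 and 0.1 µM lay below all libraries at 0, 0.001 and 1 µM, by little at the closest. The highest of the 6 had 174.9 CPM and the lowest at 1 µM 175.2 CPM. JUNB, an AP-1 partner of FOS, had 54.3, 51.4 and 55.7 CPM at 0.001 µM against 43.4, 42.7 and 45.7 at 0.01 µM and 47.5, 44.4 and 41.2 at 0.1 µM, with 44.9, 46.8 and 52.0 in the controls. Its values at 0.01 and 0.1 µM overlapped the controls but not 0.001 µM, and its adjusted p among doses was 0.659 in edgeR. For DUSP1 it was 0.486.

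**Figure D1:**
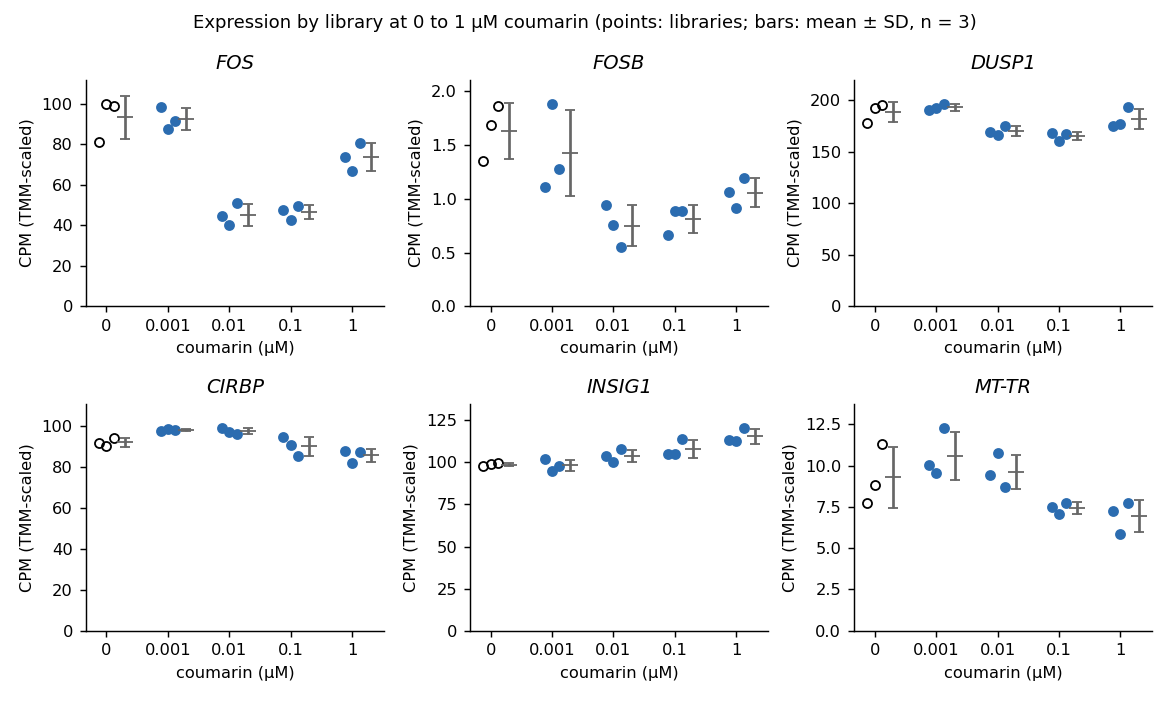
Each point is the TMM-scaled CPM of 1 library (open: 0 µM; filled: coumarin), each bar the mean ± SD of 3 libraries, over the dose in µM, for FOS, FOSB, DUSP1, CIRBP, INSIG1 and MT-TR. FOS at 0.01 and 0.1 µM sits between 40.3 and 51.0 CPM, below the other 9 libraries.

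After FOS, the 9 next smallest pooled p-values belonged to genes that did not pass, each with adjusted p = 0.556 in edgeR. TDRD7, which encodes a tudor domain protein of RNA granules, had 5.73, 6.51 and 5.62 CPM in the controls against 3.95, 4.65 and 5.39 as the lowest, median and highest of the 12 low-dose libraries, and the groups did not overlap. Its log2 fold change was -0.36 (-0.53 to -0.19). YPEL3, which overlaps a gene on the opposite strand, had 1.16, 1.02 and 1.30 CPM in the controls and 1.37 to 2.19 at the low doses (0.61, 0.32 to 0.91), again without overlap. STON2, an endocytic adaptor gene, had 7.16, 7.04 and 7.01 CPM in the controls, 5.25 to 6.07 at 0.001 to 0.1 µM and 7.02, 6.74 and 6.43 at 1 µM, so its 1 µM libraries overlapped the controls. The others were FOSB, described above, ZHX1 (log2 fold change -0.16), CAMSAP3 (-1.23), CDK11B (0.15), RPP25L (0.22) and AC145098.2 (0.53). CAMSAP3 was under 1 CPM in every library, ZHX1 shares bases with a read-through gene on its strand, and CDK11B has the near-identical copy CDK11A, so these counts are uncertain. Across all genes, the 12 low-dose libraries were all above the 3 controls for 44 genes (0.272%) and all below them for 51 (0.315%).

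The pooled fit bounded the mean change over the 4 low doses closely for most expressed genes. Changes at 1 dose only, or in opposite directions at different doses, are averaged in that mean. The median half-width of the 95% interval was 0.12 on the log2 scale. The whole interval lay within 1.1-fold of no change for 32.5% of genes, within a ratio of 5 to 4 either way, called the 25% band here, for 66.5% (10769 genes), within 1.5-fold for 79.2% (12824) and within 2-fold for 92.2% (14930). For 1 gene no interval could be computed. At the other end, the interval lay wholly beyond 1.1-fold for 76 genes, beyond the 25% band for 17, beyond 1.5-fold for 2 and beyond 2-fold for 0. The intervals are for single genes, not adjusted over the 16196 tested, and 1213 of them excluded 0. Only FOS was called in this contrast.

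The bound depended on expression. Among genes with a mean of at least 6 log2 CPM, 99.9% had the interval inside the 25% band, as did 99.5% at 4 to 6, 89.7% at 2 to 4, 21.4% at 0 to 2 and 0% below 0. Of the 3448 genes below 0 log2 CPM, 64.2% had it inside 2-fold, and they made up 1235 of the 1266 genes without that bound. A single low dose against the same controls placed 60.6% to 61.5% of genes inside the 25% band. Pooling 4 doses narrowed the interval to a median of 0.788 to 0.80 of its single-dose width, with the same 3 control libraries in both. The 6 pairs of low doses, which use no control, placed 61.1% to 62.3% of genes inside the 25% band.

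**Figure D2:**
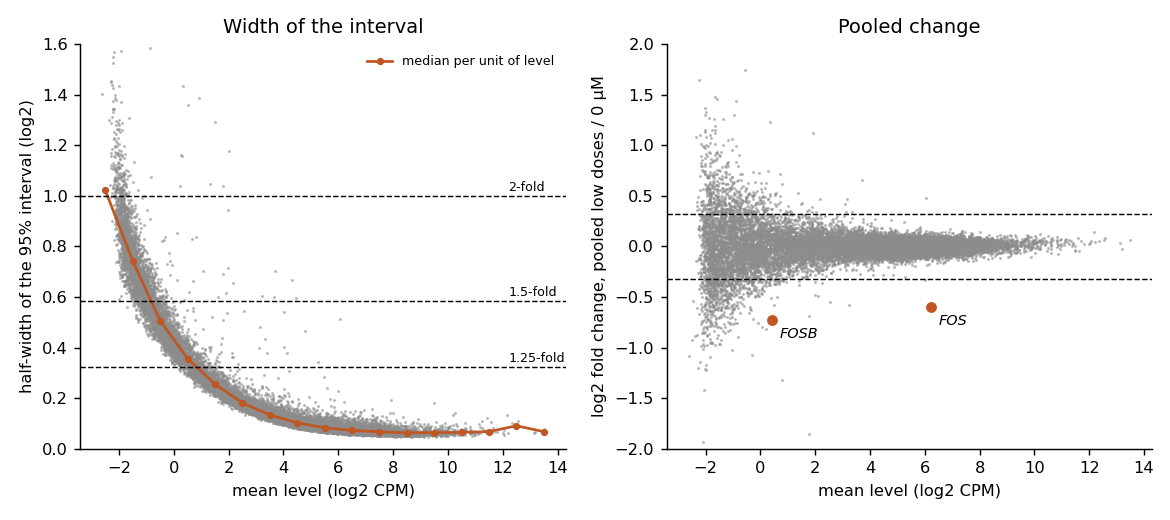
Left, the half-width of the pooled 95% interval (log2) of each tested gene over its mean level (log2 CPM), with the median per unit of level and dashed lines at the 25% band, 1.5-fold and 2-fold; right, the pooled log2 fold change over the same axis with dashed lines at the 25% band and FOS and FOSB marked. The median half-width was 0.65 below 0 log2 CPM and 0.07 at 6 or more, and FOS lies apart from genes of its level.

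A panel of 20 genes, picked with earlier results of these data known and including genes that respond at 100 µM, had no gene called at the low doses. CHAC1, a glutathione-degrading enzyme gene and target of the stress factor ATF4, had 3.83, 3.29 and 3.56 CPM in the controls and 3.22, 3.78 and 4.30 as the lowest, median and highest of the 12 low-dose libraries. The groups overlapped, and the pooled log2 fold change was 0.07 (-0.10 to 0.25), beside 2.88 (2.69 to 3.07) at 100 µM. ATF3, a stress-induced repressor, had 0.11 (-0.06 to 0.28), and DDIT3, which encodes the factor CHOP, 0.11 (-0.03 to 0.24). ASNS, asparagine synthetase, had -0.03 (-0.33 to 0.27).

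STC2 and ADM2, also ATF4 targets, were nominally higher. STC2, which encodes a secreted glycoprotein, had 44.4, 43.5 and 44.7 CPM in the controls and 45.3 to 56.5 at the low doses, with no overlap and a log2 fold change of 0.14 (0.05 to 0.23, edgeR, adjusted p = 0.645). ADM2, a peptide hormone gene, had 2.92, 2.59 and 2.503 CPM against 2.47 to 4.50, which overlapped (0.28, 0.04 to 0.51, adjusted p = 0.645). Of 23 ATF4 targets tested, 0 were called, 5 were higher and 1 lower at an unadjusted p under 0.05 (3.66% and 3.91% of all genes), the median was 0.07, and 21 had the interval inside the 25% band. Without 1 µM replicate 3, which held the highest ADM2 and STC2 values, the counts were 4 and 1, and without control replicate 2 they were 1 and 0. Without control replicate 3 they were 6 and 2.

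Targets of the aryl hydrocarbon receptor, the sensor of planar aromatic compounds, were not called either. TIPARP, one of its feedback regulators, had 69.9, 67.4 and 63.3 CPM in the controls and 63.6, 66.9 and 70.6 as the lowest, median and highest at the low doses. The groups overlapped, and its interval was -0.08 to 0.08. AHRR, the receptor's repressor, had -0.06 (-0.15 to 0.02) and CYP1B1 -0.17 (-0.39 to 0.05). CYP1A1, the classical target, was under 1.1 CPM in all libraries and had -0.17 (-0.69 to 0.34), which leaves room for 0.622- to 1.27-fold. Of the 9 tested targets 1 was nominally higher (ALDH3A1, 0.21, 0.05 to 0.36) and 6 lay inside the 25% band. Without control replicate 2 none was nominally higher or lower, and without control replicate 3 there was 1 in each direction.

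Of 22 targets of NRF2, the regulator of antioxidant defence, 2 were nominally higher and 1 lower, and 21 lay inside the 25% band. NQO1, a quinone reductase, was bounded at 0.00 (-0.06 to 0.06), and HMOX1, haem oxygenase, at 0.10 (0.01 to 0.19). Of 19 p53 targets 1, BAX, was nominally higher (0.12), and CDKN1A, the p21 cell cycle inhibitor, had 0.10 (-0.01 to 0.21). None of the 10 tested enzymes of coumarin and drug metabolism had an unadjusted p under 0.05, and 9 lay inside the 25% band, while 11 of the 21 listed had too few counts. Of the unfolded protein response 0 of 19 were nominally higher and 1, the sensor gene ERN1, lower (-0.19), and of 18 heat shock chaperones 2 were higher and 1 lower. Without control replicate 2 no gene of these 5 lists was nominally higher or lower. Without control replicate 3 the higher and lower counts were 5 and 1 for NRF2, 3 and 0 for p53, 1 and 0 for the metabolic enzymes, 1 and 1 for the unfolded protein response and 1 and 1 for the chaperones. Without 1 µM replicate 3, the higher counts of NRF2 and the chaperones were 1 each, and ERN1's list had 0 lower.

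The remaining panel genes differed in their bounds. WNT5A, a secreted signalling protein gene, had -0.06 (-0.13 to 0.00), ELF3, an epithelial transcription factor, 0.07 (-0.04 to 0.18) and TNFSF15, a cytokine gene, -0.01 (-0.19 to 0.16). C1QL1, a secreted C1q-like protein gene, had 6.42, 7.32 and 7.07 CPM in the controls and 6.68, 8.98 and 10.2 as the lowest, median and highest of the low doses, with 1 low-dose library inside the control range. Its difference was 0.34 (0.16 to 0.52, edgeR, adjusted p = 0.556). GABARAP, an autophagy protein gene, had 0.27 (0.05 to 0.50), with its highest value of 8.59 CPM in 1 µM replicate 3 against 5.01 to 5.78 in the other 11 low-dose libraries. The housekeeping genes ACTB and GAPDH had 0.05 (-0.01 to 0.11) and 0.03 (-0.03 to 0.09).

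**Figure D3:**
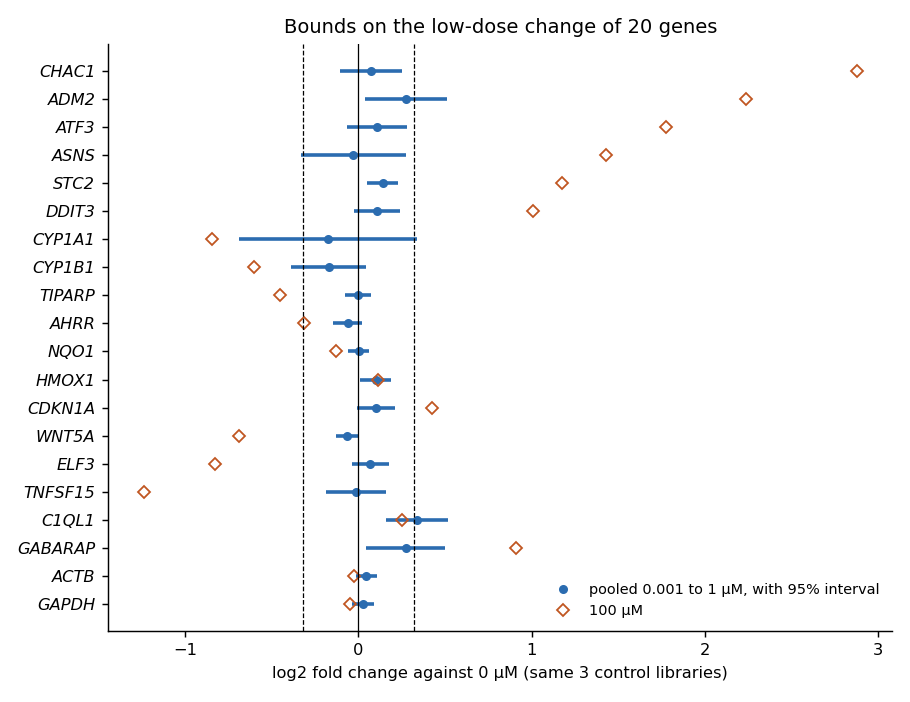
For 20 always-named genes, the pooled log2 fold change of the 4 low doses against 0 µM with its 95% interval (blue) and the log2 fold change at 100 µM (orange diamonds), which shares the 3 control libraries; dashed lines mark the 25% band. CHAC1 lies at 0.07 in the pool and at 2.88 at 100 µM.

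Broad housekeeping groups held more nominally higher than lower members, by small amounts. Of 76 cytosolic ribosomal protein genes 0 were called, 11 were nominally higher and 0 lower (median 0.05), and of 68 nuclear respiratory chain genes 13 were higher and 0 lower (median 0.05), beside 3.66% higher and 3.91% lower of all genes. RPS15 had 535, 477 and 526 CPM in the controls and 523, 552 and 610.1 as the lowest, median and highest at the low doses, which overlapped (0.11, 0.04 to 0.18). Control replicate 2 held the lowest value of the 15 for 45 of the 76 ribosomal and 32 of the 68 respiratory genes. Without it the nominally higher members numbered 0 and 1, while all genes went from 592 to 297 higher, and the medians were 0.02 and 0.02. Without control replicate 3 the nominally higher members numbered 15 and 15, with medians of 0.06 and 0.06, while all genes stood at 1107 higher. Without 1 µM replicate 3 they numbered 7 and 12, with all genes at 481 higher. The highest value of the 15 was in 0.001 µM replicate 3 for 50 of the ribosomal and 33 of the respiratory genes. List counts without that library were not made. Almost all members, 75 of 76 and 65 of 68, had the interval inside the 25% band.

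Long genes of the cytoskeleton and nucleus lay the other way: of 20 tested, 0 were called, 7 were nominally lower and 0 higher, beside 3.91% and 3.66% of all genes, with a median of -0.09 and all 20 inside the 25% band. Without control replicate 2, 4 were nominally lower, while all genes went from 633 to 255 lower. Without control replicate 3, 7 were, with all genes at 933, and without 1 µM replicate 3, 9 were, with all genes at 542. BIRC6, an anti-apoptotic ubiquitin ligase, had 115, 119 and 118 CPM in the controls and 90.6, 106 and 114 as the lowest, median and highest at the low doses, without overlap (-0.15, -0.25 to -0.06). In 0.1 µM replicate 1 19 of the 20 genes had their lowest value, and in control replicate 2 9 had their highest. List counts without 0.1 µM replicate 1 were not made. Over all genes the pooled median ran from 0.02 in the shortest of 5 equal groups by gene length to -0.03 in the longest, and 10.4% of the longest group had an unadjusted p under 0.05. Per library, the slope of relative log2 CPM on log2 gene length averaged 0.00734 ± 0.00424 (SD, n = 3) in the controls and 0.00076 ± 0.00576 (SD, n = 12) at the low doses, a difference of -0.00658 (exact permutation test over 455 arrangements, two-sided, p = 0.0901, adjusted over 2 library measures 0.180). The mitochondrial share of counts differed by 0.1246 percentage points (5.93% ± 0.225 against 6.06% ± 0.311, exact permutation p = 0.569, adjusted 0.569). Leaving out control replicate 2 gave a difference of 0.0376, control replicate 3 0.252, 0.001 µM replicate 2 0.0721 and 0.1 µM replicate 1 0.0800 percentage points. The part of gene length in the list counts was not tested beyond the fit with length and GC offsets, which left 1028 genes at an unadjusted p under 0.05.

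Other groups were described by their counts alone, none with a call, beside 3.66% nominally higher and 3.91% lower of all genes. Of 16 tested replication-dependent histone genes, counted in RNA captured on poly(dT) beads, 6 were nominally higher (median 0.09). The count was 3 without control replicate 2 or without control replicate 3, and 5 without 1 µM replicate 3. HIST1H2BD had 6.55, 5.95 and 6.48 CPM in the controls and 6.63 to 8.64 at the low doses without overlap (0.30, 0.13 to 0.47). Of 28 G2/M genes 4 were nominally lower, MKI67 (-0.10) and CENPF (-0.13) among them, and 0 higher. Without control replicate 2, 3 were lower. Without control replicate 3, 9 were lower, while all genes went from 633 to 933 lower. Of 25 DNA replication genes 0 were nominal in either direction. Cholesterol synthesis had 6 of 23 higher (median 0.05), led by MVK, mevalonate kinase (0.14, 0.05 to 0.24). That list had 1 higher without control replicate 2, 9 without control replicate 3 and 4 without 1 µM replicate 3. Interferon-stimulated genes had 2 of 14 higher and 1 lower (0 and 0 without control replicate 2, 1 and 1 without control replicate 3, 0 and 1 without 1 µM replicate 3), and only 5 lay inside the 25% band. Apoptosis regulators had 3 of 21 higher and 1 lower (1 and 0 without control replicate 2), noncoding RNAs 1 of 14 higher (0 without control replicate 3), and the FOXO and metallothionein lists 0 of 12 and 0 of 6. The FOXO list had 2 lower without control replicate 2 and 1 without 1 µM replicate 3.

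In glycolysis and hypoxia, 5 of 25 genes were nominally higher and 0 lower (median 0.06). A single library held most of the highest values: 1 µM replicate 3 was highest of the 15 for 15 of the 25, against 7.10% of all tested genes. CA9, carbonic anhydrase 9 and a hypoxia marker, had 11.1 CPM there and 2.75 to 4.45 in the other 14. BNIP3, a mitophagy receptor, had 76.7 CPM there and 48.6 to 59.3 elsewhere. VEGFA, the angiogenic growth factor, had 125 CPM there and 86.2 to 112 elsewhere. Without that library 2 of the 25 were nominally higher, and without control replicate 2, 1 was. Control replicate 2 held the lowest value of the 15 for 12 of the 25, against 13.8% of all tested genes. Without control replicate 3, 6 were nominally higher.

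**Figure D4:**
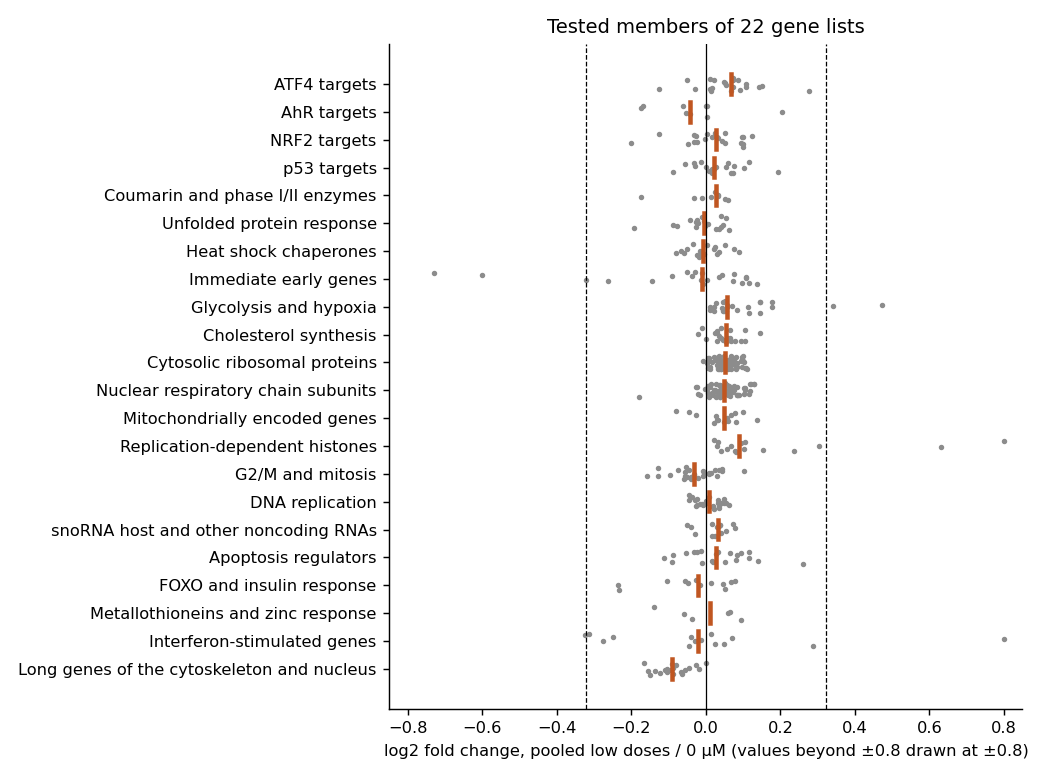
Each grey point is the pooled log2 fold change of a tested member of 1 of 22 gene lists. List medians are in orange, the black line is the median over all tested genes (0.0012), and the 25% band is dashed. Values beyond 0.8 in size are drawn at that limit. The list medians run from -0.09 (long genes) to 0.09 (histones), and FOS and FOSB lie far to the left among the immediate early genes.

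Ordered differences over the 4 doses, tested as a slope per 10-fold step of dose, called 3 genes (0.0185% of 16196), with INSIG1 rising and CIRBP and MT-TR falling, each with adjusted p = 0.0353 in edgeR. At an unadjusted p under 0.05 there were 1411 genes (8.71%), 694 with a positive slope (4.29%) and 717 with a negative one (4.43%). The median absolute slope over all genes was 0.0226 log2 units per step and its 99th percentile 0.273. Each kept its direction but lost the call in many fits with 1 library left out: INSIG1 was called in 7, CIRBP in 6 and MT-TR in 8 of 15 (highest adjusted p 0.226, 0.494 and 0.494). None of the 3 was called without 0.001 µM replicate 3, 0.01 µM replicate 1 or 2, 0.1 µM replicate 2, or any 1 of the 1 µM libraries, CIRBP also not without 0.001 µM replicate 1, and CIRBP and INSIG1 not without 0.001 µM replicate 2. With only the 15 libraries in the fit, or with limma on FPKM, none was called.

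INSIG1 (chr7:155297776-155310235 in the GRCh38 coordinates of the deposited table) encodes the protein that holds the sterol sensor SCAP in the endoplasmic reticulum. It had 97.7, 98.7 and 99.4 CPM in the controls and 102, 95.05 and 97.7 at 0.001 µM. It had 103, 100.4 and 108 CPM at 0.01 µM, 105, 105 and 114 at 0.1 µM and 113, 113 and 120.1 at 1 µM. The controls overlapped 0.001 µM, and the 3 libraries at 1 µM lay above all at 0.001 and 0.01 µM. The slope was 0.08 log2 units per 10-fold dose (SE 0.014). At 100 µM INSIG1 had a log2 fold change of 0.01 (-0.08 to 0.10). Of 23 cholesterol synthesis genes, INSIG1 included, 1 was called for the slope. An unadjusted p under 0.05 was found for 5 positive slopes and 1 negative, beside 4.29% and 4.43% of all tested genes. IDI1, which encodes an isomerase of the pathway, was among the positive, with a slope of 0.05 that did not pass (adjusted p = 0.388, edgeR).

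CIRBP (chr19:1259384-1274880), a cold-inducible RNA-binding protein gene, had 91.7, 90.1 and 94.2 CPM in the controls, 97.6, 98.7 and 98.0 at 0.001 µM and 98.9, 97.3 and 96.0 at 0.01 µM. It had 94.5, 90.7 and 85.4 CPM at 0.1 µM and 87.8, 81.9 and 87.5 at 1 µM. The lowest doses lay above the controls and 1 µM below them. The pooled difference was 0.01 (-0.05 to 0.07) while the slope was -0.07 (SE 0.012). It overlaps CIRBP-AS1 on the opposite strand. At 100 µM it was higher than the controls, by a log2 fold change of 0.20 (adjusted p = 0.00124).

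MT-TR (chrMT:10405-10469) encodes the mitochondrial transfer RNA for arginine, 65 bases long, in RNA that was selected with poly(dT) beads. It had 7.71, 8.86 and 11.3 CPM in the controls, 10.0, 9.54 and 12.3 at 0.001 µM, 9.41, 10.7 and 8.68 at 0.01 µM, 7.49, 7.05 and 7.75 at 0.1 µM and 7.26, 5.85 and 7.72 at 1 µM. All 6 libraries at the lower 2 doses lay above all 6 at the higher 2, and the controls overlapped both sets. The slope was -0.22 (SE 0.04). Of 15 other mitochondrially encoded genes 8 had a nominally negative slope and 0 a positive one, beside 4.43% and 4.29% of all tested genes. None of the 15 was called. In the pooled contrast 1 was nominally higher and 1 lower. The higher count was 0 without control replicate 2 or without 1 µM replicate 3, and 3 without control replicate 3. MT-ATP8, a subunit of ATP synthase, had the steepest slope of them, -0.23 (SE 0.05, adjusted p = 0.231), with 49.5, 59.0 and 57.6 CPM at 0.001 µM and 32.8, 31.7 and 45.5 at 1 µM beside 35.7, 35.2 and 53.4 in the controls. It shares bases with MT-ATP6.

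Ribosomal protein and respiratory chain genes had nominally negative slopes in 21 of 76 and 17 of 68, with 0 and 1 positive and none called. These counts stand beside 4.43% negative and 4.29% positive of all tested genes. The library 0.001 µM replicate 3 held the highest value of the 15 for 50 of the 76 and 33 of the 68. Without that library the nominal slopes over all genes numbered 915 instead of 1411. They ran from 896 to 2119 over the 15 fits with 1 library left out. Slope counts of the lists were not made with a library left out. The mitochondrial share of counts was 6.22% ± 0.362 at 0.001 µM and 5.79% ± 0.188 at 1 µM (SD, n = 3), and the length slope -0.00153 ± 0.00381 and 0.00610 ± 0.00194. Their part in these slopes was not tested. Among pairs, the nominal counts over all genes were 443 (2.74%) for 0.01 against 0.001 µM, 854 (5.27%) for 0.1 against 0.001 µM and 1165 (7.19%) for 1 against 0.001 µM. They were 895 (5.53%) for 0.1 against 0.01 µM, 961 (5.93%) for 1 against 0.01 µM and 717 (4.43%) for 1 against 0.1 µM.

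The number of nominal pooled differences depended on the controls. It was 1225 with all 15 libraries, 552 without control replicate 2, 2040 without control replicate 3 and 1170 without control replicate 1. Leaving out a low-dose library gave 1023 to 1663.

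**Figure D5:**
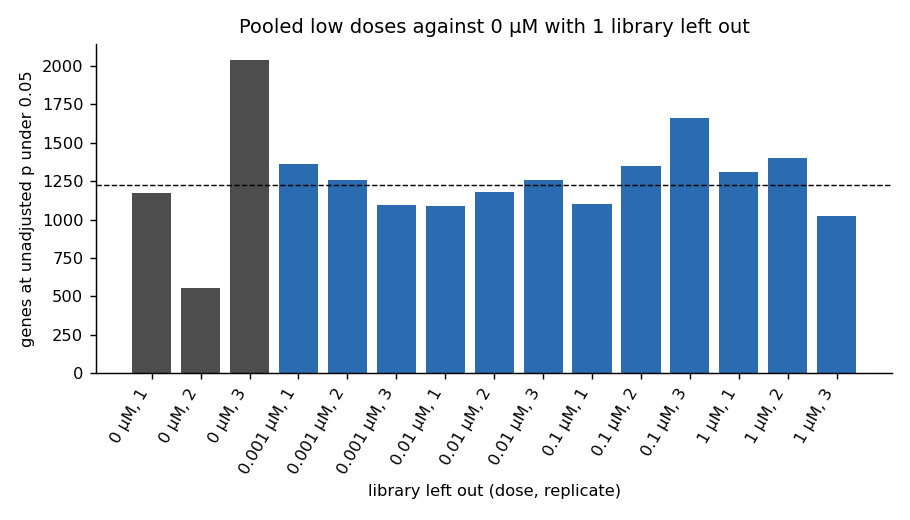
Bars give the number of genes with an unadjusted p under 0.05 in the pooled contrast with the named library left out (dark: 0 µM; blue: low doses), and the dashed line the 1225 genes with all libraries. The shortest and the tallest bar, 552 and 2040, belong to 2 control libraries.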

How the data were processed

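Libraries were made from Trizol RNA after capture on poly(dT) beads, with SmartScribe as the reverse transcriptase, according to the labels' protocols. The deposited table holds whole-number counts per gene and library, not normalized, and the deposited FPKM are the authors' values, which equal counts over gene length and a library constant (largest relative deviation 2.32e-08). The submitters' processing notes name HISAT2, DESeq2 and GRCh38. Neither the counting tool nor its use of strand is stated in the sources at hand. FPKM entered only the limma alternative.

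Groups came from the labelled dose. Counts were kept by filterByExpr, TMM-scaled and fitted in 1 edgeR 4.0.16 (R 4.3.3) quasi-likelihood model of all 21 libraries in 7 groups (prior count 0.125, 14 residual degrees of freedom, prior 13.4, common biological coefficient of variation 0.0436). Contrasts were the mean of the 4 low doses minus 0 µM, an F-test among the 4, their slope over log10 dose, 6 pairs and each dose against 0 µM, with Benjamini-Hochberg adjustment over genes (genes and pairs together for pairs) and a threshold of 0.05. The 95% intervals use the moderated spread and are not adjusted over genes. The steps were also run on simulated counts with known changes, whose spread followed the trend over expression. That simulation held no gene-specific spread, outlying library or length trend, so it cannot show how the fit handles them. The length slope used a pseudocount of 0.5 CPM. No replicates were merged: over 15 pairs the chi-square divided by its degrees of freedom was 2.69 to 12.3. Deviations of same-numbered libraries correlated by -0.0950 to 0.0751 (30 pairs), and those of differently numbered libraries by -0.110 to 0.104. No shared effect of the replicate number was seen, which cannot exclude that libraries were handled in matched sets.

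The members and the 22 gene lists (530 entries, all matched by symbol, 505 tested) were chosen with earlier results of these data known. Named genes are the 10 smallest pooled p-values, those called among doses or for the slope, up to 3 per list discussed and a panel of 20; others were chosen after their values were seen. Alternatives were DESeq2 1.42.0 and its size factors, limma 3.58.1 on log2(FPKM + 1) and log2(FPKM + 0.1) at a mean FPKM of at least 0.5, other filters, a replicate block, offsets for gene length and GC content (16189 genes with GC), only the 15 libraries, the 12 as 1 group, the pool without each dose and each library left out. Robust moderation and the list counts without 1 library were added after seeing the data. Figures were drawn with matplotlib 3.10.9.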

Additional observations from a re-analysis of the deposited data

Results flagged for a closer look

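FOS differed among the 4 low doses in the test of that difference itself (edgeR F-test, adjusted p = 1.12e-05), with the 6 libraries at 0.01 and 0.1 µM below the 3 at 0.001 µM and the 3 at 1 µM. With robust moderation this call was lost (adjusted p = 0.160). INSIG1 differed with dose by its slope (edgeR, adjusted p = 0.0353), as did CIRBP (adjusted p = 0.0353) and MT-TR (adjusted p = 0.0353). With 1 library left out INSIG1 was called in 7, CIRBP in 6 and MT-TR in 8 of 15 fits, and none of them with only the 15 libraries or with limma on FPKM.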

How the results depend on the processing

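Pooled low doses against 0 µM gave 1 called gene, and 0 with limma on either FPKM scale, with the 12 low-dose libraries as 1 group, without 0.01 or without 0.1 µM in the pool, and with robust moderation (911 and 917, 1237, 989, 1276 and 1207 genes at an unadjusted p under 0.05). Without the filter it gave 66 (31 higher, 35 lower), and 0 to 2 with a library left out (2 without 0.1 µM replicate 3, 0 without control replicate 2 or 3). Differences among the low doses gave 1, with 5 by DESeq2, 137 without the filter, 0 with robust moderation and 1 to 2 with a library left out (2 without control replicate 3, any 0.001 µM library or 0.1 µM replicate 3). The slope gave 3, with 9 by DESeq2, 0 with limma on either scale, 116 without the filter, 0 with only the 15 libraries, 8 with length and GC offsets and 0 to 4 with a library left out. Pairs gave 1 gene, with 9 by DESeq2, 0 with limma on either scale, 150 without the filter, 4 with offsets, 0 with robust moderation and 1 to 3 with a library left out (3 without control replicate 2, 2 without 0.001 µM replicate 2 or 3). The unfiltered fit took 33791 genes at a median of 0.196 CPM and estimated an infinite prior degree of freedom, against 13.4 with the filter; only 1, 1 and 0 of its 66, 137 and 116 calls were genes that the filter removes. For these settings and the others the cause was not tested. Genes inside the 25% band numbered 10769, with 9981 to 10787 when a library was left out and 10580 to 11925 in the other fits. The length slope difference was -0.00902 to -0.00532 with a library left out (exact permutation p 0.0440 without control replicate 3) and -0.0130 with the 1 CPM filter. The mitochondrial share difference was 0.0376 (without control replicate 2) to 0.252 percentage points (without control replicate 3). With the replicate block the pooled, among-dose and slope counts were 1, 1 and 2 (CIRBP lost, edgeR slope, adjusted p = 0.0571). The pairs then gave 2 genes, and 10744 genes lay inside the 25% band. No shared effect of the replicate number was seen, which cannot exclude matched sets. Of genes below 0 log2 CPM 0% lay inside the 25% band, and of those at 0 to 2 21.4%.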
